A study of Mus musculus with 24 samples.

Results

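In all, 9 genes of the vitamin A (retinoid) pathway were followed in whole mouse liver: Lrat, Rbp4, Rdh11, Aldh1a1, Cyp26a1, Cyp26b1, Rara, Rarb and Rarg. They were chosen by name as genes of retinoid storage and signalling. All 9 of 9 listed genes were found among the 56205 genes of the count table, and all 9 passed the filter on low counts.

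The libraries came from C57BL/6J mice, a standard inbred strain. Male and female mice, 6 per diet and sex, spent 20 weeks on control chow or on a diet rich in fat (palm oil) that also held fructose and cholesterol, and were 8 to 10 weeks old when the diet began. RNA-Seq of poly(A)-selected RNA from whole liver gave 12 libraries per diet, numbered 1 to 12 within each diet. The labels do not state which mouse or which sex a library came from, and the vitamin A content of the diets was not given in the sources used here.

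Vitamin A reaches the liver as retinyl esters, is hydrolysed in hepatocytes, and is either bound to its carrier for export or passed to hepatic stellate cells, which esterify it again and hold it in lipid droplets. Retinol that is not stored is oxidised to retinal and then to retinoic acid, the ligand of the retinoic acid receptors, which act on DNA as heterodimers with the retinoid X receptors. Retinoic acid is cleared by cytochromes P450 of the CYP26 family, and Cyp26a1 and Rarb are textbook targets of retinoic acid itself. Stellate cells lose their retinyl ester droplets when they turn into myofibroblasts.

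On the high-fat diet 1 of the 9 genes rose, the receptor Rarg, and 2 fell, the retinol carrier Rbp4 and the retinal reductase Rdh11. A gene was called when its adjusted p did not exceed 0.01 and its log2 fold change lay beyond 0.5 in either direction. Over all 17913 genes tested, 13.2% were called higher and 4.99% lower, 18.2% in either direction, in a quasi-likelihood fit by edgeR whose p-values were adjusted by Benjamini-Hochberg over all genes, as were all adjusted p of edgeR below. Lrat, Aldh1a1, Rara, Rarb, Cyp26a1 and Cyp26b1 were not called. The median log2 fold change of the 9 genes was 0.34 against -0.03 over all genes tested, and 6 of the 9 values were above 0.

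Libraries held 14468418 to 22112552 counts for control mice and 16490817 to 21213070 for high-fat mice, so that 3 counts stood for 0.118 to 0.306 CPM (counts scaled to a common library size by edgeR's TMM method). Control replicate 10 stood apart, with the fewest counts, the lowest TMM factor (0.679) and the lowest mitochondrial share of counts (3.65%). High-fat replicate 9 had the highest TMM factor (1.34). The libraries also fell into 2 sets by Xist, the RNA of the inactive X chromosome, with 2664 to 6285 counts in one set and 0 to 3 in the other, and 6 libraries of each diet in each set. In the set with low Xist the Y-linked gene Ddx3y had 448 to 1016 counts, and in the other it had 0. Since the labels give no sex for a library, the sets are named below by their Xist counts, above or below 1000.

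Cell type markers moved with the diet. Of the 11 hepatocyte markers tested, 8 were lower on the high-fat diet and none was higher, and their summed level was 92974 to 144572 CPM on the control diet and 43878 to 102928 CPM on the high-fat diet. Of 14 markers of activated stellate cells and myofibroblasts, 12 were higher, with a sum of 96.8 to 404 CPM against 303 to 1520 CPM. Of 15 markers listed for quiescent stellate cells, Lrat among them, 4 were higher (Ngfr, Colec11, Des and Pdgfrb) and none was lower. Their sums were 280 to 668 CPM and 369 to 592 CPM. The 11 not called had log2 fold changes from -0.39 (Vipr1) to 0.66 (Rgs5), with Reln at 0.13. Not every gene of this list is specific to the quiescent state, and its calls do not measure quiescence. None of the markers of these 3 lists was at 0 in every library of a diet. In bulk RNA, fewer cells of a type and less RNA per cell cannot be told apart, and the part of cell composition in the results below was not tested.

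The 9 genes lie on 7 chromosomes of the mouse genome (RefSeq gene models, build GRCm38.p6). Lrat is at chr3:82892582-82903974, Cyp26b1 at chr6:84571414-84593908, Rara at chr11:98927800-98974942, Rdh11 at chr12:79174233-79191855, Rarb at chr14:16430839-17082331 and Rarg at chr15:102234938-102257522. On chromosome 19 lie 3 of them: Aldh1a1 at chr19:20492583-20643463, Cyp26a1 at chr19:37697738-37701536 and Rbp4 at chr19:38116620-38125321. Cyp26a1 and Rbp4 are 415 kb apart, and Cyp26c1, the third CYP26 gene, ends 4.42 kb before Cyp26a1.

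Retinoic acid receptors bind pairs of a 6-base element in direct repeat. Promoters, taken from RefSeq as 250 bases before and 50 bases after each annotated start, were searched on both strands. A match was any pair of the element AGGTCA or its variant AGTTCA or the variant GGGTCA or the variant GGTTCA, on the same strand, with 5 bases of any kind between them (DR5), 2 (DR2) or 1 (DR1). A DR5 was present in 32 of 32817 promoters of mouse genes (0.0975%), a DR2 in 88 (0.268%) and a DR1 in 73 (0.222%). The 9 genes had 16 promoter windows, and those of Rarb and Cyp26a1 held a DR5 each. No DR1 or DR2 was found in any of the 16 windows. The windows of Rarb and Cyp26a1 are shown because both genes are known targets of retinoic acid and their levels are given below. Capitals mark the 6-base elements, and each sequence runs 5′ to 3′ on the strand of the gene. Rarb lies at chr14:16575427-16575726 on the minus strand and Cyp26a1 at chr19:37697558-37697857 on the plus strand. The start site of each window is inside its gene's span.
Rarb: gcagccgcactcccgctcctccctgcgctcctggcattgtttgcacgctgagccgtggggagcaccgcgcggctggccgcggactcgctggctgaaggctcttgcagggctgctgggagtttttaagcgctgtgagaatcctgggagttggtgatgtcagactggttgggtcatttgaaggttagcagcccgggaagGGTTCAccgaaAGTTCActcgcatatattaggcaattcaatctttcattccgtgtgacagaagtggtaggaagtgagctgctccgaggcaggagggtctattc
Cyp26a1: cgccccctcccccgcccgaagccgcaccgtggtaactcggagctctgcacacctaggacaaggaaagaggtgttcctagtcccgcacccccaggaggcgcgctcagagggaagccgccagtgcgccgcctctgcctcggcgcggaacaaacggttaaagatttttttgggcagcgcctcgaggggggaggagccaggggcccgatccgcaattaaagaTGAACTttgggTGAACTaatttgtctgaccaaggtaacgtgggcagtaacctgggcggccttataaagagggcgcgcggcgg
The DR5 of Rarb, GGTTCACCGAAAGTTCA, occupied bases 198 to 214 of its window and ended 36 bases before the start site. That of Cyp26a1 was read on the opposite strand, as TGAACTTTGGGTGAACT on the strand of the gene, at bases 219 to 235, ending 15 bases before the start site. Both DR5 thus lie before the start site of their window but within the gene span given above. A match of letters is a description of the sequence and does not show that a receptor was bound in these livers.

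Levels per kilobase of exon differed widely among the genes. On the control diet the mean was 2909 CPM per kb for Rbp4, 321 for Aldh1a1, 16.5 for Rdh11, 6.93 for Rara, 3.63 for Cyp26b1, 3.10 for Lrat, 2.10 for Rarg, 2.06 for Cyp26a1 and 1.11 for Rarb. The ranges of Rbp4, Aldh1a1, Rdh11 and Rara did not overlap from one to the next in that order. Cyp26b1 and Lrat could not be ordered (exact sign-flip test over 12 libraries, two-sided p = 0.918), nor could Rarg and Cyp26a1 (exact p = 0.527). On the high-fat diet Rara, with 7.37 CPM per kb, stood above Rdh11, with 5.32 (exact p = 0.0142), whereas on the control diet Rdh11 was above Rara in 12 of 12 libraries. Rarg (4.09), Lrat (3.94) and Cyp26a1 (3.88) followed with overlapping ranges and could not be ordered (exact p = 0.785 and 0.475), and Cyp26b1 (1.99) and Rarb (1.65) were also not separable (exact p = 0.976).

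**Figure D1:**
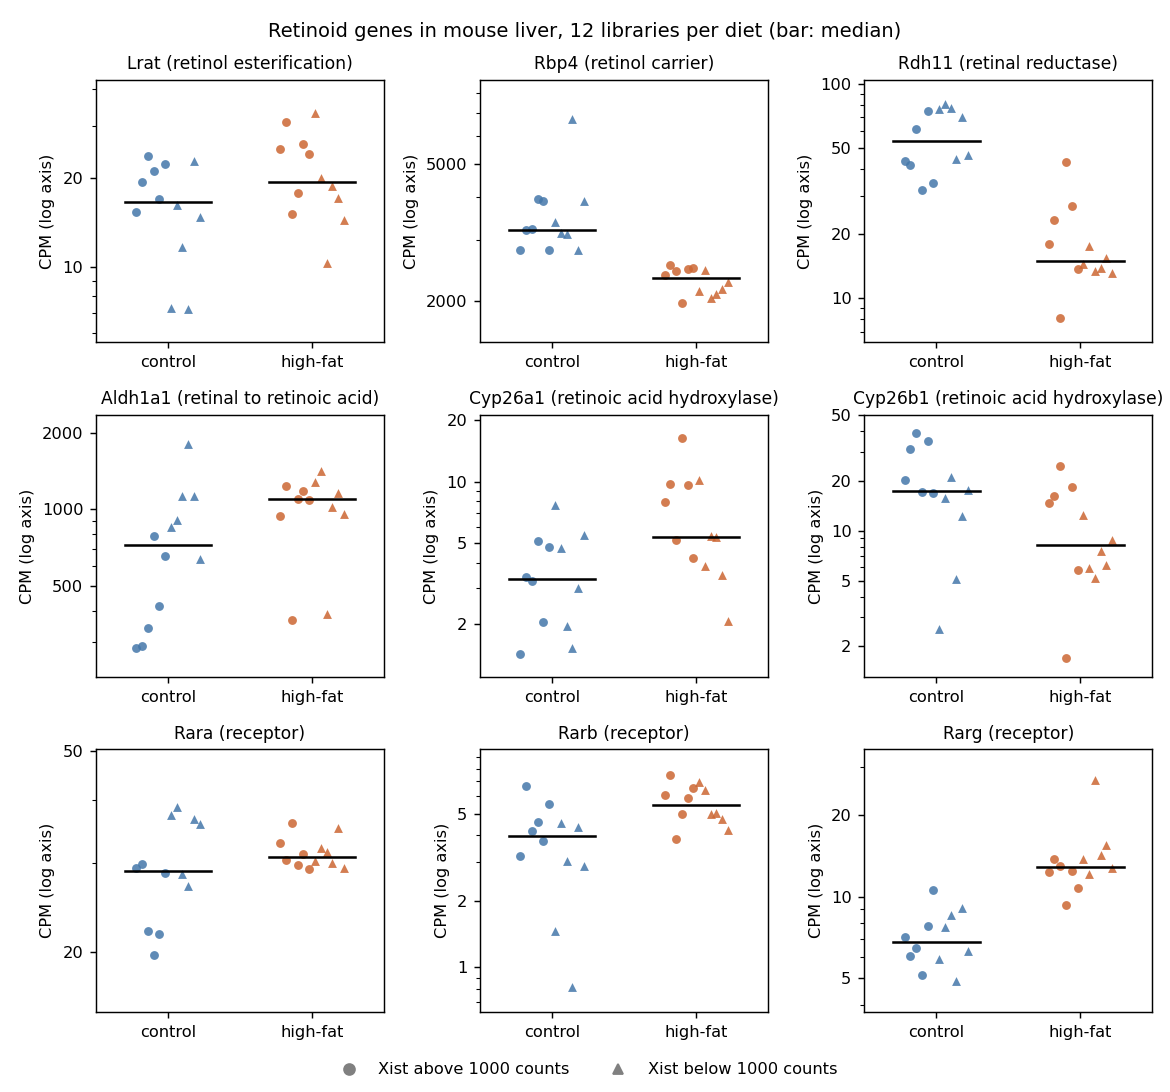
Levels of the 9 genes in each library, in CPM on a log axis, for the control diet and the high-fat diet. Each point is a library, circles and triangles mark the sets with Xist above and below 1000 counts, and bars are medians of 12 libraries. Rbp4 was lower in all 12 high-fat libraries than in any control library, and Rarg was higher in 11 of 12 than in any control library.

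Storage came first. Lrat encodes lecithin retinol acyltransferase, the enzyme that esterifies retinol for storage in stellate cells. Its level ran from 7.23 to 23.8 CPM (median 16.6 CPM) in control libraries and from 10.4 to 33.1 CPM (median 19.5 CPM) in high-fat libraries. The diets overlapped broadly, with 5 high-fat libraries above the highest control and 2 control libraries below the lowest high-fat library. Its log2 fold change was 0.34 ± 0.20 (SE, n = 12 per diet; edgeR adjusted p = 0.172), and the interval of 2 SE around it ran from -0.05 to 0.74. Reln, another marker of quiescent stellate cells, had a log2 fold change of 0.13 ± 0.13, and the log2 ratio of Lrat to Reln counts within a library was 0.24 ± 0.13 higher on the high-fat diet (permutation p = 0.0628, adjusted 0.126 over 4 ratios chosen after the data were seen). Without control replicate 6 that difference was 0.30 (adjusted permutation p = 0.0350), and without any other single library the adjusted p was above 0.05. The genes most like Lrat over the 24 libraries, as deviations from the means of each diet and Xist set, were Col14a1, which encodes a fibril-associated collagen (Pearson r = 0.85), Reln (r = 0.81) and Arhgap10, a GTPase-activating protein (r = 0.81). Col14a1 and Arhgap10 were called higher on the high-fat diet, with log2 fold changes of 0.71 ± 0.16 and 0.72 ± 0.20 (edgeR adjusted p = 0.00110 and 0.00527), and Reln was not. These correlations are a description, since the points share the depth and composition of each library. With the 2 libraries of most extreme Lrat left out they were 0.82, 0.78 and 0.79.

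Rbp4 encodes the plasma retinol-binding protein that carries retinol out of hepatocytes, and was the most abundant of the 9 RNAs per kilobase. It had 2801 to 6734 CPM (median 3217 CPM) in control libraries and 1968 to 2544 CPM (median 2321 CPM) in high-fat libraries. Every high-fat library was below every control library, a separation seen for 0.402% of all genes tested in that direction. On the log2 scale the change was -0.65 ± 0.12 (SE, n = 12 per diet; edgeR adjusted p = 0.000135). The highest control value belonged to replicate 10, and without it the log2 fold change was -0.53. With library totals alone as the scale the value was -0.33 (edgeR adjusted p = 0.00208), under the fold threshold, while the median of all genes moved from -0.03 to 0.26. Relative to that median, Rbp4 was lower on both scales.

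Ttr encodes transthyretin, which binds the Rbp4 protein in plasma, and its log2 fold change was -0.62 ± 0.11. The ratio of Rbp4 to Ttr counts does not depend on the scaling of a library. On the log2 scale it ran from -0.91 to -0.29 in control libraries and from -0.96 to -0.15 in high-fat libraries, and the ranges overlapped almost wholly. The mean difference was 0.02 ± 0.09 (SE), with an interval of 2 SE from -0.15 to 0.19 (permutation p = 0.832, adjusted 0.832 over the 4 ratios). Within the Xist sets it was -0.17 in the libraries above 1000 counts (exact permutation p = 0.117) and 0.21 in those below (exact permutation p = 0.0887). Against Alb, which encodes albumin, the difference was 0.17 ± 0.21 (permutation p = 0.442, adjusted 0.589), with an interval of 2 SE from -0.25 to 0.58. Without control replicate 10 it was 0.30 (adjusted permutation p = 0.151), and without any single library it ranged from 0.11 to 0.30. With both Xist sets pooled, these intervals did not separate the fall of Rbp4 from those of the 2 secreted hepatocyte proteins. Ttr itself differed between the sets in its response to the diet (edgeR interaction adjusted p = 0.016). The pooled values therefore do not show that the falls were alike within each set.

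The log2 ratio of Lrat to Rbp4, storage enzyme against carrier, ran from -9.84 to -6.94 in control libraries and from -7.61 to -6.01 in high-fat libraries. Of the high-fat libraries, 8 were above the highest control. The mean rose by 0.98 ± 0.27 (SE; permutation p = 0.00042, adjusted 0.00105 over 5 ratios). This ratio combines the changes given above for Lrat (0.34, not called) and Rbp4 (-0.65, called), and is not a separate result on storage. Control replicate 10 had the lowest ratio, and without any single library the rise ranged from 0.79 to 1.06.

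Rdh11 encodes a retinol dehydrogenase that with NADPH acts mainly as a retinal reductase, turning retinal back to retinol. It had 31.9 to 80.4 CPM (median 53.9 CPM) in control libraries and 8.10 to 43.0 CPM (median 14.97 CPM) in high-fat libraries. In all, 11 of 12 high-fat libraries were below the lowest control, and 9 controls were above the highest high-fat library, replicate 4. The log2 fold change was -1.63 ± 0.22 (SE, n = 12 per diet; edgeR adjusted p = 4.11e-06), a level 0.323 times that of the controls and the largest change among the 9 genes. In the libraries with Xist below 1000 counts the high-fat values lay close together, from 13.1 to 17.5 CPM, against 44.7 to 80.4 CPM in their controls, a log2 fold change of -2.15 ± 0.16. In those with Xist above 1000 counts they were spread from 8.10 to 43.0 CPM against 31.9 to 74.6 CPM, a log2 fold change of -1.10 ± 0.31 that missed the threshold (edgeR adjusted p = 0.0279). The difference between the sets, -1.06 ± 0.38, did not pass the interaction test (edgeR adjusted p = 0.0765).

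The 3 genes most like Rdh11 were all of sterol and acetyl-CoA metabolism. Cyp51, the lanosterol demethylase of cholesterol synthesis, had r = 0.95. Acss2, the cytosolic acetyl-CoA synthetase, and Fdps, the farnesyl diphosphate synthase, had r = 0.92 each. With the 2 libraries of most extreme Rdh11 left out, the values were 0.93, 0.92 and 0.88. All 3 fell on the high-fat diet, with log2 fold changes of -2.06 ± 0.26, -1.54 ± 0.34 and -1.87 ± 0.35. None of these genes belonged to the retinoid lists.

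**Figure D2:**
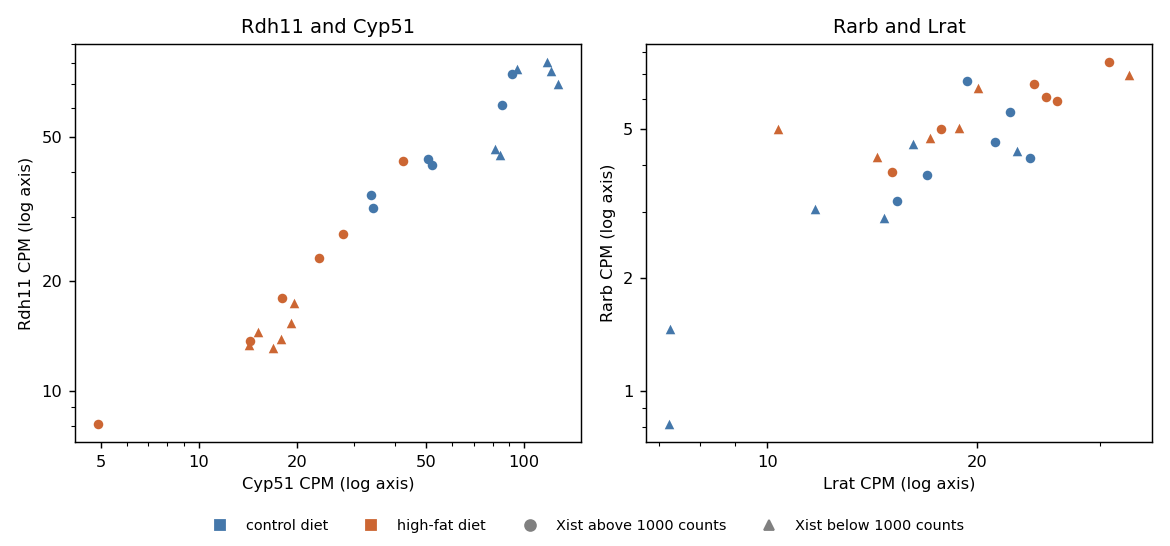
Left, Rdh11 against Cyp51, the gene most like it; right, Rarb against Lrat, both in CPM on log axes, 1 point per library coloured by diet and shaped by Xist set. Over the 24 libraries, as deviations from the means of each diet and set, Pearson r was 0.95 for the left pair and 0.80 for the right pair, and the control libraries sat at the upper end of the left panel.

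Aldh1a1 encodes a retinaldehyde dehydrogenase, which oxidises retinal to retinoic acid and also handles other aldehydes. Its level ran from 285 to 1810 CPM (median 721 CPM) in control libraries and from 368 to 1419 CPM (median 1095 CPM) in high-fat libraries. The diets overlapped, and the log2 fold change was 0.40 ± 0.27 (edgeR adjusted p = 0.256). In the libraries with Xist above 1000 counts, controls had 285 to 787 CPM (median 380 CPM) and high-fat libraries 368 to 1237 CPM (median 1095 CPM). In those below 1000 counts, controls had 636 to 1810 CPM (median 1014 CPM) and high-fat libraries 387 to 1419 CPM (median 1091 CPM). The log2 fold changes were thus 1.10 ± 0.29 and -0.03 ± 0.28, of which neither was called (edgeR adjusted p = 0.0209 and 0.944), and their difference, -1.14 ± 0.44, did not pass the interaction test (edgeR adjusted p = 0.101). The lowest high-fat levels were those of replicates 3 and 9. The genes most like Aldh1a1 were Cryzl2 (r = 0.94), Ghitm (r = 0.93) and Fitm1 (r = 0.92), and the values were 0.92 or above without the 2 farthest libraries.

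Cyp26a1 and Cyp26b1 encode the hydroxylases that inactivate retinoic acid, neither was called, and their log2 fold changes had opposite signs. Cyp26a1 had 1.43 to 7.68 CPM (median 3.34 CPM) in control libraries and 2.08 to 16.4 CPM (median 5.37 CPM) in high-fat libraries. Of the high-fat libraries, 5 were above the highest control and 11 of 12 were above the control median. Its log2 fold change was 0.90 ± 0.30 (SE), which missed the threshold in edgeR (adjusted p = 0.0188) and passed it in DESeq2 (0.92, adjusted p = 0.00672). It also passed in edgeR without high-fat replicate 12 (1.005) or without control replicate 7 (1.05). Within the Xist sets the values were 1.41 ± 0.33 above 1000 counts and 0.31 ± 0.40 below (edgeR adjusted p = 0.0112 and 0.574), with an interaction of -1.11 ± 0.55 (edgeR adjusted p = 0.224).

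Cyp26b1 had 2.54 to 38.6 CPM (median 17.2 CPM) in control libraries and 1.69 to 24.7 CPM (median 8.19 CPM) in high-fat libraries. Of 12 high-fat libraries, 10 were below the control median, yet the ranges overlapped over most of their length. Its log2 fold change was -0.88 ± 0.36 (edgeR adjusted p = 0.0566), and the gene was not called. It had the widest spread of the 9 genes on the high-fat diet, with a coefficient of variation of 63.1%. Its log2 difference between the Xist sets with diet as a term was -0.95 ± 0.31, below against above 1000 counts, and was not called (edgeR adjusted p = 0.0465). Over all genes, 4.58% were called by that comparison.

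Within a library, the log2 ratio of Cyp26a1 to Cyp26b1 ran from -4.05 to 1.57 (median -1.92) in control libraries and from -2.24 to 3.24 (median -0.68) in high-fat libraries. Again 10 of 12 high-fat libraries were above the control median. The mean rose by 1.73 ± 0.59 (SE; permutation p = 0.00572, adjusted 0.00953 over 5 ratios), and by 1.39 to 2.08 without any single library. The highest ratio of each diet, in high-fat replicate 4 and control replicate 7, belonged to the library with the highest Cyp26a1 and the lowest Cyp26b1 of that diet. The rise was 2.68 in the libraries with Xist above 1000 counts (exact permutation p = 0.00649, adjusted 0.0216) and 0.77 in those below (exact permutation p = 0.318, adjusted 0.398), and the difference between the sets was not tested for the ratio. Cyp26c1 had 0 to 3 counts per library and was not tested.

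The 3 retinoic acid receptors differed in their values. Rara had 19.8 to 38.8 CPM (median 29.0 CPM) in control libraries and 29.3 to 36.0 CPM (median 30.8 CPM) in high-fat libraries. The high-fat libraries lay within the range of the controls, and the log2 fold change was 0.09 ± 0.10 (edgeR adjusted p = 0.491), with an interval of 2 SE from -0.10 to 0.28. In the libraries with Xist above 1000 counts it was 0.33 ± 0.11, and in those below -0.10 ± 0.11 (edgeR adjusted p = 0.0660 and 0.483, interaction adjusted p = 0.0682).

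Rarb had 0.815 to 6.69 CPM (median 3.97 CPM) in control libraries and 3.84 to 7.52 CPM (median 5.46 CPM) in high-fat libraries. Only 2 high-fat libraries were above the highest control, while 6 controls were below the lowest high-fat library. The lowest control, replicate 10, had 8 counts. The log2 fold change was 0.56 ± 0.21 (edgeR adjusted p = 0.0350), and the gene was not called. It was called with library totals as the scale (0.81) and with 2 surrogate variables (0.61), and without control replicate 10 the value was 0.47. With library totals the median of all genes also moved up, from -0.03 to 0.26. Over the 24 libraries Lrat was the third most like gene to Rarb (r = 0.80, and 0.74 with the 2 libraries of most extreme Rarb left out), after Pla2r1 (r = 0.84), a phospholipase A2 receptor, and Rps6ka1 (r = 0.81), a ribosomal S6 kinase. It was the highest correlation among the 36 pairs of the 9 genes. The log2 ratio of Rarb to Lrat counts was 0.34 ± 0.14 higher on the high-fat diet (permutation p = 0.0194, adjusted 0.0774 over the 4 ratios chosen after the data were seen). Leaving out 1 library gave 0.26 to 0.40, and the adjusted p was at most 0.05 in 4 of 24 cases: without high-fat replicate 7 or without control replicate 2, 6 or 8 (0.37, 0.40, 0.35 and 0.37).

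Rarg had 4.89 to 10.6 CPM (median 6.81 CPM) in control libraries and 9.31 to 26.7 CPM (median 12.9 CPM) in high-fat libraries. The values of 11 of 12 high-fat libraries were above the highest control, and only high-fat replicate 4 was not. On the log2 scale the change was 0.96 ± 0.14 (SE, n = 12 per diet; edgeR adjusted p = 1.68e-05), a level 1.94 times that of the controls. It was called within both Xist sets, at 0.73 ± 0.16 above 1000 counts and 1.17 ± 0.21 below (edgeR adjusted p = 0.00783 and 0.000553), where 3.80% and 22.2% of all genes were called. The highest value was that of high-fat replicate 9, which also had the highest sum of activated stellate cell markers and the lowest sum of hepatocyte markers, and without it the log2 fold change was 0.84. The part of that composition in the level of Rarg was not tested. The genes most like Rarg were Ace, the angiotensin-converting enzyme (r = 0.88), Oasl2, an interferon-induced gene (r = 0.87), and Arhgap27, a GTPase-activating protein (r = 0.85). All 3 were higher on the high-fat diet, with log2 fold changes of 1.94 ± 0.28, 1.44 ± 0.18 and 1.60 ± 0.23.

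As ratios within a library, Rarg rose against Rara. The log2 ratio ran from -2.66 to -1.44 in control libraries and from -1.67 to -0.24 in high-fat libraries, with 9 high-fat libraries above the highest control. The mean difference was 0.82 ± 0.15 (SE; permutation p = 3e-05, adjusted 0.00015 over 5 ratios), at 0.41 in the libraries with Xist above 1000 counts and 1.23 in those below (exact permutation p = 0.0195 and 0.00216, the latter the smallest that 6 against 6 allow). Rarb against Rara differed by 0.59 ± 0.28 (permutation p = 0.0436, adjusted 0.0545), and its adjusted p was at most 0.05 without high-fat replicate 3 or without control replicate 2, 3, 4, 5 or 6 (0.64 to 0.68). This difference was -0.01 in the libraries with Xist above 1000 counts and 1.19 in those below. Rarb against Rarg differed by -0.23 ± 0.25 (permutation p = 0.363), with an interval of 2 SE from -0.74 to 0.27.

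**Figure D3:**
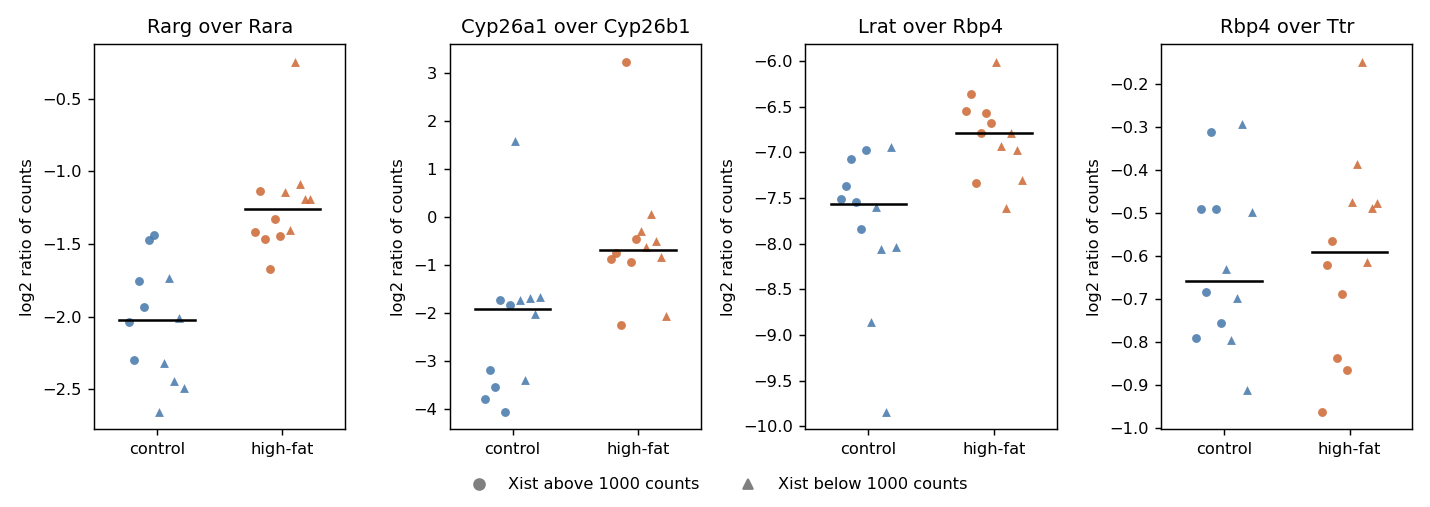
Log2 ratios of counts within each library (1 count added to each gene) for Rarg over Rara, Cyp26a1 over Cyp26b1, Lrat over Rbp4 and Rbp4 over Ttr, by diet. Points are libraries, shaped by Xist set, and bars are medians of 12. The first 3 ratios rose on the high-fat diet, by 0.82, 1.73 and 0.98 in the mean, and the last differed by 0.02.

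**Figure D4:**
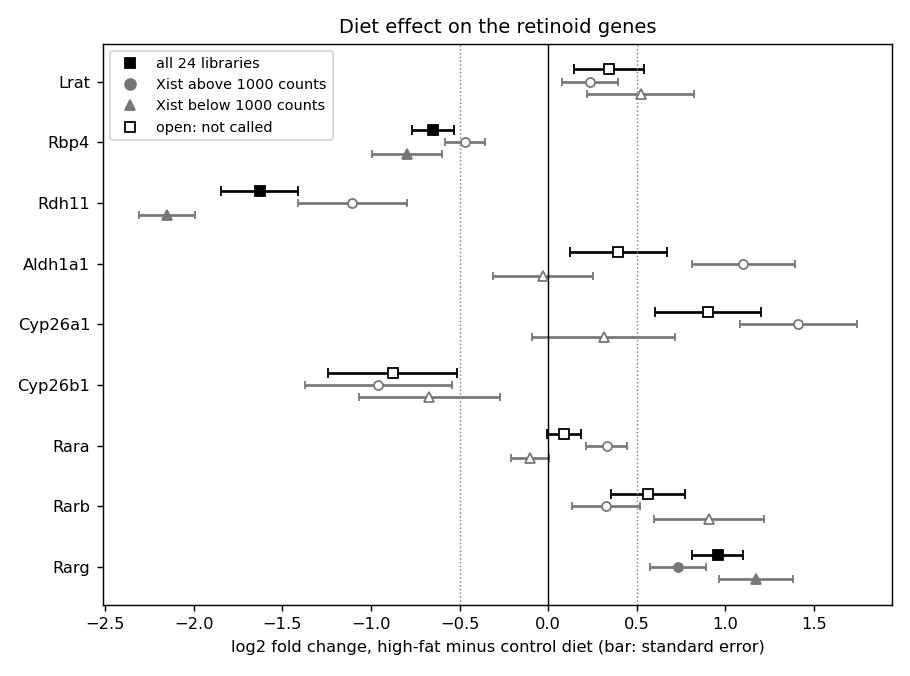
Log2 fold change on the high-fat diet with its standard error for the 9 genes, in all 24 libraries (squares) and in the 12 libraries with Xist above (circles) or below (triangles) 1000 counts. Filled symbols were called, and dotted lines mark the fold threshold of 0.5. Rarg was filled in all 3 fits, whereas Rbp4 and Rdh11 were filled in the full set and in the set below 1000 counts only.

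No difference between the Xist sets in the diet effect passed the interaction test for any of the 9 genes, at edgeR adjusted p from 0.0682 (Rara) to 0.840 (Cyp26b1), where 10.2% of all genes passed at 0.05. At an unadjusted p under 0.05 the interaction was passed by Rara, Rdh11 and Aldh1a1 (p = 0.00835, 0.00988 and 0.0153).

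The other genes of the pathway were read from lists by role. Of 95 genes listed, 85 were tested, 12 were higher (14.1%) and 9 lower (10.6%) on the high-fat diet, and the median log2 fold change was -0.17 against -0.03 over all genes. Over all genes the shares called were 13.2% and 4.99%. Of these 21 genes, 17 were called with any 1 library left out. The other 4, Aldh1a2, Aldh8a1, Cyp2s1 and Cd38, lost the call in at least 1 such fit.

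Among 14 tested genes of retinyl ester synthesis and hydrolysis, 1 rose and 1 fell. Lpl, lipoprotein lipase, rose by 3.39 ± 0.28 on the log2 scale, from a mean of 12.8 to 134 CPM, with no overlap between the diets. Of all genes tested, 1.48% had every high-fat library above every control library. Lipc, hepatic lipase, fell by 0.71 ± 0.17, from 181 to 110 CPM. The other 12 ranged from -0.88 to 0.30 and were not called.

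Of 9 tested genes of transport and uptake, 2 fell and 1 was called higher. Besides Ttr, Fabp5, an intracellular carrier that can bring retinoic acid to another nuclear receptor, fell by 2.01 ± 0.38. The call of Rbp7, a cellular retinol-binding protein, rested on 29 counts over 12 high-fat libraries and 2 counts over 12 control libraries. Crabp1, Crabp2 and Stra6, the retinoic acid carriers and the membrane receptor of the retinol carrier, had at most 2 counts in any library and were not tested.

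Of 22 retinol and retinal oxidoreductases, 2 rose and 2 fell. Dhrs9, a retinol dehydrogenase, rose from a mean of 1.01 to 3.15 CPM (log2 fold change 1.64 ± 0.38), and Akr1b10, an aldo-keto reductase, rose from 1.79 to 3.84 CPM (1.09 ± 0.24). Retsat, the retinol saturase, fell from 418 to 249 CPM (-0.75 ± 0.14), with 11 of 12 high-fat libraries below the lowest control. Adh7, an alcohol dehydrogenase that oxidises retinol, fell from 3.79 to 2.19 CPM (-0.79 ± 0.15).

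Of 6 tested genes that oxidise retinal to retinoic acid, 2 were called higher and 1 lower. Aox1, aldehyde oxidase, rose by 0.78 ± 0.18, from 43.2 to 74.3 CPM. Aldh8a1, a dehydrogenase that prefers 9-cis-retinal, fell by 0.50 ± 0.10, from 278 to 197 CPM. Aldh1a2, the retinaldehyde dehydrogenase of embryonic and mesothelial tissue, had 0 to 6 counts per control library and 1 to 269 per high-fat library (log2 fold change 2.85 ± 0.73). Of its 387 counts on the high-fat diet, 269 were in 1 library, replicate 9. Without that library the log2 fold change of Aldh1a2 was 1.38 ± 0.48, and the gene was not called (edgeR adjusted p = 0.0267). Aldh8a1 lay at the fold threshold and was not called in 13 of 24 fits without 1 library, at -0.45 in the extreme one.

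Of 9 tested genes listed under clearance besides Cyp26a1 and Cyp26b1, 4 were called higher and 1 lower. Not every gene of this list acts only in clearance, and clearance of retinoic acid was not measured. Cyp3a11, a major drug-metabolising cytochrome P450, rose from 560 to 1896 CPM (1.76 ± 0.25), and Cyp2c55 rose from 1.28 to 3.55 CPM (1.48 ± 0.21). Both were without overlap between the diets, as were 1.48% of all genes in that direction. Cyp1b1 rose from 1.10 to 3.66 CPM (1.73 ± 0.27) and Cyp2s1 from 0.348 to 1.07 CPM (1.60 ± 0.45). Of the 279 counts of Cyp2s1 on the high-fat diet, 123 were in replicate 9. Without that library its log2 fold change was 0.99 ± 0.33 and was not called (edgeR adjusted p = 0.0227), and the call was also lost without control replicate 2, 4, 7, 8, 9 or 12. Ugt2b1, a glucuronosyltransferase, fell from 304 to 137 CPM (-1.15 ± 0.25).

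None of the 16 receptor partners and cofactors was called, and their log2 fold changes ran from -0.38 to 0.36. Rxra, the main retinoid X receptor of liver, had a mean of 663 CPM on the control diet and 547 CPM on the high-fat diet (log2 fold change -0.28). Rxrb and Rxrg had -0.21 and -0.23, and the corepressor gene Ncor1 had -0.35.

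Of 12 tested genes besides Cyp26a1 and Rarb that textbooks list as induced by retinoic acid, 2 rose and 2 fell. Tgm2, tissue transglutaminase, rose by 1.20 ± 0.14, from 149 to 344 CPM, with no overlap (1.48% of all genes in that direction). Cd38, an NAD glycohydrolase, was called higher at 0.61 ± 0.18, with 0.53 to 0.69 when 1 library was left out, and lost the call in 11 of those 24 fits. Pck1, the gluconeogenic carboxykinase, fell by 1.12 ± 0.21, from 2966 to 1368 CPM, and Hsd17b2, a steroid dehydrogenase, fell by 0.68 ± 0.13. The genes of this list thus moved in both directions, with a median of -0.09. The list leaves out Cyp26a1 and Rarb, whose log2 fold changes were 0.90 and 0.56, neither of them called.

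**Figure D5:**
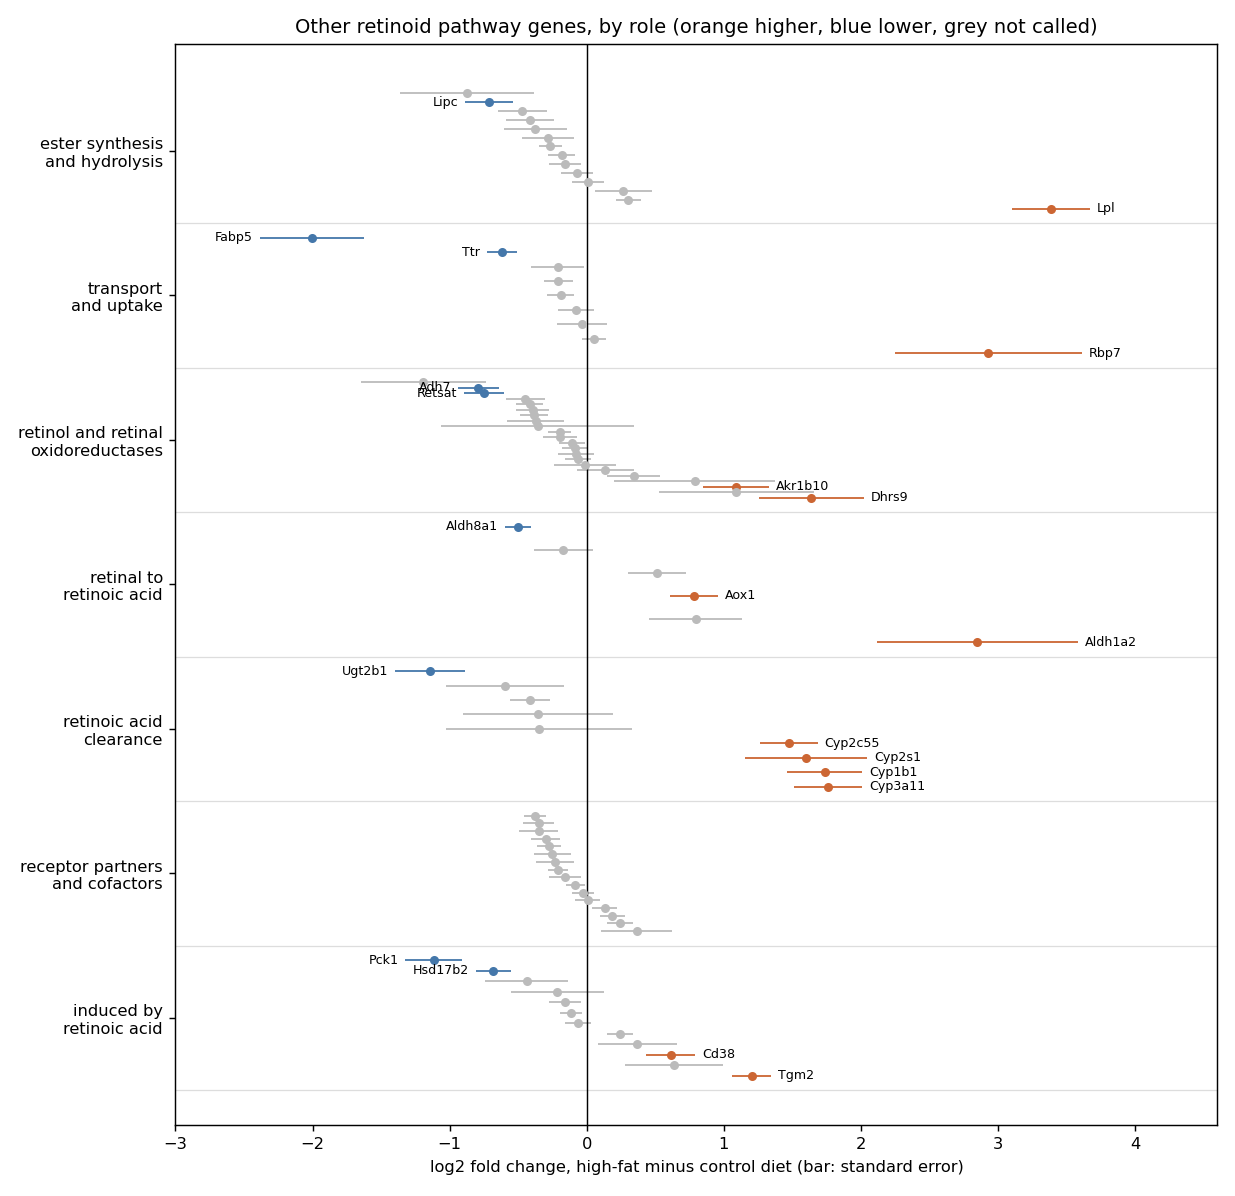
Log2 fold change on the high-fat diet with its standard error for the 85 tested genes of the 7 lists by role, 1 point per gene and list. Named points were called, orange for higher and blue for lower, and grey points were not. In the clearance list 4 of 9 genes were called higher, and all 16 receptor partners lay between -0.38 and 0.36.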

How the data were processed

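The deposited file holds whole-number read counts per Ensembl gene, which the authors left unnormalized. The submitters' processing notes name bcl2fastq, STAR 2.7.3a and mm10. For RNA-Seq with a human reference the methods of the study name the exon quantification pipeline, STAR and PISCES. Which counting program and annotation served the mouse libraries is not given in the sources used here. Symbols came from GENCODE M21 for 51745 of 56205 IDs, and the other 4460 held 0.0723% of counts. Reads of near-identical genes, such as the CES and UGT families, may be split by the counting.

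Genes with a count of 1 or more in 12 or more libraries (17913) were fitted with edgeR 4.0.16 in R 4.3.3, by a quasi-likelihood model with TMM scaling and diet alone, and p-values were adjusted by Benjamini-Hochberg. SEs are log2 fold changes divided by the square root of F. On simulated counts for these 17913 genes, 83% of 200 changed genes were recovered and 0 others called. These counts were drawn from the fitted model itself, without Xist sets. Changes were of at least 1 on the log2 scale, in genes with a mean of at least 10 counts. Recovery of smaller changes was not tested. Ratios used two-sided permutation tests (100000 resamples, or exact by SciPy 1.17.1 for 6 against 6), with 1 count added to each gene. Single genes were permuted with 100000 resamples on log2 values with 1 CPM added. The smallest p these resamples can give is 1e-05. Levels per kilobase used summed exon lengths.

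The genes followed, the pathway and marker lists and the tests were chosen with earlier results of these data known. The rule for naming genes took the 9 genes, called genes of the pathway lists, and for each of the 9 the 3 genes with the highest Pearson r among 13776 with a mean of at least 10 counts. A few pathway genes are not reported here and are left out of the lists' counts. Other genes named below a list were chosen after their values were seen. The 11 marker lists covered quiescent and activated stellate cells, hepatocytes and their pericentral and periportal kinds, macrophages, T cells, cholangiocytes, sinusoidal endothelium, portal fibroblasts, and smooth muscle with mesothelium.

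Alternatives were DESeq2 1.42.0, limma-voom (limma 3.58.1), other scalings, filters and thresholds, surrogate variables (sva 3.50.0), a replicate block, the Xist sets, and each library left out. The ratios to Ttr, Alb, Reln and Lrat were added after seeing the data. Libraries of the same diet always differed by more than sampling noise (chi-square per degree of freedom of 9.48 or more). The design gives as many mice as libraries in each diet, but the labels tie no library to a mouse, and p-values measure the spread between these libraries.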

Additional observations from a re-analysis of the deposited data

Results flagged for a closer look

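Of 30 genes checked (the 9 genes and the called genes of the pathway lists), 6 differed between the Xist sets in their response to the diet by the interaction test (edgeR's quasi-likelihood test, adjusted p at most 0.05), none of them among the 9. Over all genes 10.2% passed this test, and 21 of the 30 genes were taken because the diet comparison called them. The labels give no sex for a library, so the sets are known only by their Xist counts. Differences are given as libraries below minus libraries above 1000 Xist counts. Aldh1a2 differed by 4.23 (adjusted p = 0.0192), with log2 fold changes of 3.96 and -0.29, on few counts. Of its 387 counts on the high-fat diet, 269 were in replicate 9, a library of the set below 1000 counts. The difference between the sets was not tested without that library. Akr1b10 differed by 1.58 (adjusted p = 0.00324), with 2.04 and 0.45. Tgm2 differed by 0.86 (adjusted p = 0.0140), with 1.65 and 0.79, a rise in both sets. Ugt2b1 differed by -1.61 (adjusted p = 0.000613), with -1.73 and -0.13. Hsd17b2 differed by -0.82 (adjusted p = 0.00874), with -1.08 and -0.26. Ttr differed by -0.67 (adjusted p = 0.0160), with -0.95 and -0.29, while Rbp4, whose protein it binds, had -0.80 and -0.47 and did not pass (adjusted p = 0.396).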

How the results depend on the processing

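Rarg kept its call under every alternative fit, and lost it where a log2 fold change over 1 was required. Rbp4 lost its call with library totals (-0.33) and among libraries with Xist above 1000 counts (-0.47), and Rdh11 among the latter (-1.10). Rarb became called with library totals (0.81) and with 2 surrogate variables (0.61), and Cyp26a1 with DESeq2 (0.92) and library totals (1.16). Among libraries with Xist below 1000 counts Rara turned to -0.10 and Aldh1a1 to -0.031. Of the 9 genes, 2 were called higher with DESeq2 and with 2 surrogate variables, 3 with library totals and at an adjusted p of 0.05 with no fold threshold, and 0 at a log2 fold change over 1, where 1 was lower. One was lower with library totals and 0 above 1000 Xist counts. Over all genes, library totals gave 3827 higher and 226 lower, Xist above 1000 counts 525 and 162, adjusted p at most 0.05 3709 and 3388, at least 10 counts in every library 1226 higher, Xist below 1000 counts 1430 lower, and a log2 fold change over 1 216 lower. Of the pathway genes, 5 were higher with at least 10 counts in every library and 5 above 1000 Xist counts, while 4 were lower with library totals, 2 above and 15 below 1000 Xist counts. Fewer genes entered the fit with at least 10 counts in every library, and fewer libraries those of a single Xist set. Library totals and the other thresholds kept the genes and libraries of the main fit. With library totals the median log2 fold change of all genes was 0.26, against -0.03 in the main fit. The cause of these shifts was otherwise not tested. The ratio of Rarb to Rara was -0.010 above and 1.19 below 1000 Xist counts, that of Cyp26a1 to Cyp26b1 0.77 below, and that of Rbp4 to Ttr -0.17 above. The interaction count was 3213 with library totals, and the difference between sets for Rbp4 was then 0.057.

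Leaving out 1 library at a time gave 0.71 to 1.05 for Cyp26a1, 1 to 2 genes called higher of the 9, 0.43 to 0.68 for Rarb over Rara (adjusted p at most 0.05 in 6 of 24) and -0.022 to 0.052 for Rbp4 over Ttr (below 0 without high-fat replicate 8, at -0.00052, high-fat replicate 9, at -0.022, or control replicate 11, at -0.0089). Replicate numbers were not treated as pairs, since correlations of same-numbered libraries ran from -0.09 to 0.54 and 2 of 12 matched best with their own number. With the number as a replicate block, no call among the 9 genes changed (Rbp4 -0.61, Rarg 0.94, Rdh11 -1.70), and 2063 genes were higher and 844 lower. Counting depth limits Rarb and Cyp26a1 most, at 8 and 15 counts in the lowest library.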

Other observations

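Markers of cell types other than stellate cells and hepatocytes also differed between the diets in the same edgeR fit. Of 12 macrophage markers 8 were higher on the high-fat diet, of 7 cholangiocyte markers 5 and of 8 portal fibroblast markers 5. Of 10 sinusoidal endothelial markers 2 were higher, and of 7 smooth muscle and mesothelial markers 2, Wt1 and Aldh1a2. None of these lists had a member called lower. Log2 fold changes were above 0 for 11 of 12 macrophage, 6 of 10 sinusoidal endothelial and 4 of 7 smooth muscle and mesothelial markers. Myh11, Cnn1 and Actg2 of smooth muscle had -0.51, -0.54 and -0.59. None of 8 T cell markers or 10 pericentral hepatocyte markers was called, and 6 of 9 periportal hepatocyte markers were lower. Summed macrophage markers were 131 to 513 CPM on the control diet and 424 to 865 CPM on the high-fat diet, and summed cholangiocyte markers 5.58 to 17.4 CPM and 9.11 to 187 CPM, the highest in high-fat replicate 9.

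The genes most like Rbp4 were Tgds, Mrpl15 and Endog, with r = 0.94, 0.94 and 0.93, and 0.86, 0.86 and 0.84 without control replicate 10. All 3 were lower on the high-fat diet. Those most like Rara were Gm9207, Gm49322 and Zfp316, with r from 0.81 to 0.84 and no call. Those most like Cyp26a1 were Fam83f, Alg2 and Zc3h12d, with r from 0.68 to 0.76 and no call. Those most like Cyp26b1 were 4930503L19Rik, Rnf144a and Fosl2, with r from 0.69 to 0.72, and Fosl2 was called higher (log2 fold change 0.88 ± 0.12). Cyp26b1 itself was not called. These correlations describe 24 libraries that share depth and composition.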
